A study of Mus musculus with 18 samples.

Results

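The genes of presynaptic vesicle release were examined in E15.5 mouse cerebral cortex, where RNA-seq measured transcripts and Ribo-seq measured ribosome-protected fragments (footprints). The set holds 44 genes taken by symbol for their known place in the release cycle. No measured value enters that rule, but the set was drawn up with earlier results of these data known, so its counts are not those of an unselected set. All 44 were found in both count tables, among 55153 genes listed for RNA-seq and 54838 genes listed for Ribo-seq. Each assay had 9 libraries, 3 from each of 3 genotypes, which makes 18 libraries in all. Ctrl embryos were labelled wild type. *F*-cKO embryos were labelled *Fto* f/f with *Emx1-Cre*, which targets the RNA demethylase gene *Fto* in the cortical lineage, and *M*-cKO embryos were labelled *Mettl3* f/f with *Emx1-Cre*, which targets the RNA methyltransferase gene *Mettl3* there. All groups carry the strain label C57BL/6. The *Emx1* promoter drives Cre in dorsal telencephalic progenitors, so that their excitatory neurons and astroglia lose the floxed gene, whereas interneurons, vessels and microglia that enter the cortex from elsewhere keep it. The labels call the libraries of a group biological repeats but do not say whether a library came from 1 embryo or from a pool, so *P* values measure the spread between these libraries.

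A nerve terminal releases transmitter when a vesicle fuses with the presynaptic membrane. Vesicles are loaded by transporters, held in a reserve by synapsins, brought to the active zone by Rab3 and its effectors, and made ready to fuse by priming factors. SNARE proteins on the vesicle and the plasma membrane zip together, complexins clamp them, and synaptotagmins and Doc2 proteins sense calcium, after which the membrane is retrieved by endocytosis. At this age most cortical neurons are still migrating or growing axons, and few synapses have formed.

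Each RNA-seq library held between 18504094 and 22592406 counted reads, and each Ribo-seq library between 10973699 and 35853227 counted fragments. The 44 genes together took 0.436% ± 0.026 (SD, n = 3) of all RNA-seq counts in Ctrl libraries, against 0.380% ± 0.020 for *F*-cKO and 0.371% ± 0.011 for *M*-cKO. The *Fto* FPKM was 10.8, 11.2 and 8.37 in Ctrl and 3.26, 7.56 and 2.43 in *F*-cKO, so that *F*-cKO replicate 2 kept the most *Fto* RNA of its group. In footprints the *Fto* RPKM was 3.91, 2.11 and 4.04 in *F*-cKO against 25.9, 22.0 and 17.6 in Ctrl, with *F*-cKO replicate 2 the lowest. The *Mettl3* FPKM was higher in *M*-cKO, at 8.61, 7.82 and 8.34, than in Ctrl, at 5.84, 6.43 and 5.07, and its Ribo-seq RPKM was lower, at 6.78, 6.02 and 6.40 against 9.16, 9.25 and 9.93. The direction of *Mettl3* RNA therefore did not follow the *M*-cKO label, while that of its footprints did, and counts per gene do not separate the floxed part from the rest of the transcript, so that they check the deletion only in part. Throughout the text *F*-cKO and *M*-cKO stand for the libraries so labelled. Cortical projection neuron markers were all detected, with a summed FPKM of 192 to 204 in Ctrl libraries, 238 to 258 for *F*-cKO and 237 to 247 for *M*-cKO.

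In Ctrl cortex the most abundant transcripts of the set, in length-scaled FPKM, were those of the synaptotagmin *Syt4* (73.0 ± 12.6, SD, n = 3), the vesicle SNARE *Vamp2* (71.4 ± 6.02) and *Syt11* (65.5 ± 3.94), a synaptotagmin that does not bind calcium. The order of these 3 lay within their spread. Next came the fusion clamp *Cplx2* (53.8 ± 3.75) and the calcium sensor *Syt5* (47.7 ± 3.80). Leaving aside *Rims1* (listed at 0 in Ctrl) and *Rab3a* (0.483 ± 0.163), which are described below, the lowest were *Syt2* (0.450 ± 0.041), *Sv2c* (0.704 ± 0.070) and *Vamp1* (0.835 ± 0.127), genes better known from the hindbrain, spinal cord or basal ganglia than from the fetal cortex. *Syt1*, the main fast calcium sensor of the adult forebrain, was at 16.7 ± 2.65, below *Syt4* by more than the spread of either.

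**Figure D1:**
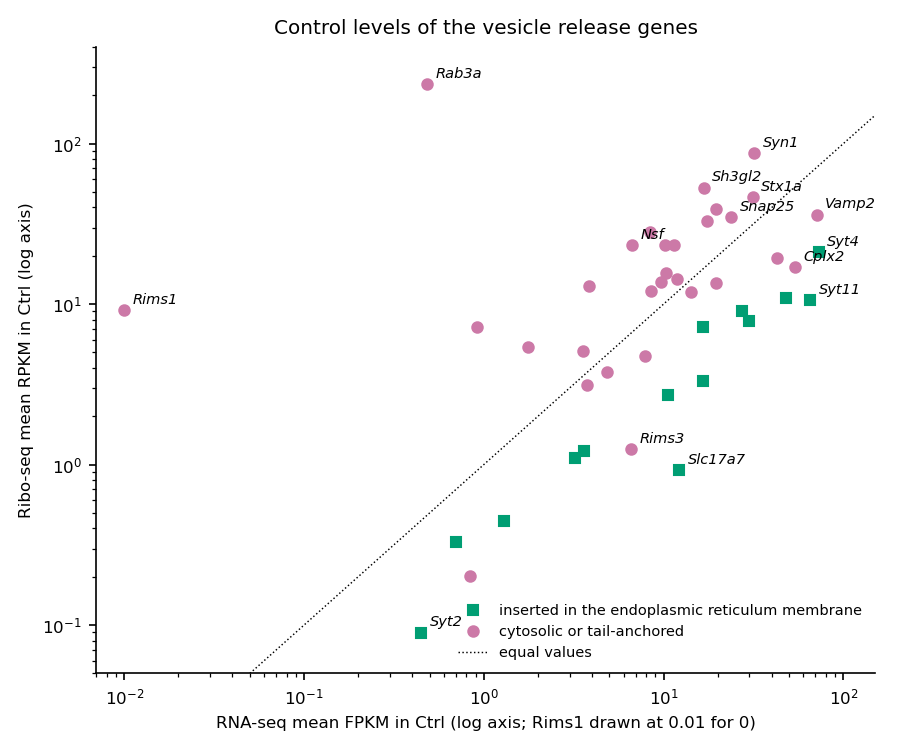
Mean Ctrl level of each gene of the set, with RNA-seq FPKM on the x axis and Ribo-seq RPKM on the y axis (both log axes, n = 3 libraries per assay), coloured by how the protein enters the membrane. Squares, the 14 proteins inserted in the endoplasmic reticulum membrane, all lie below the dotted line of equal values, and *Rab3a* and *Rims1* (drawn at the left edge for an FPKM of 0) lie far above it.

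Footprints ranked the set differently. Translation efficiency (TE), calculated from group means as Ribo-seq RPKM divided by RNA-seq FPKM, had a median of 0.783 over 43 members in Ctrl, against 0.790 over all genes with both values. Proteins that are threaded into the endoplasmic reticulum membrane while they are made (the synaptotagmins, *Syp*, *Sypl*, *Synpr*, the Sv2 family and the vesicular glutamate transporters) all had low ratios: 14 of 14 lay below the median of all genes, between 0.0757 for *Slc17a7* and 0.469 for *Sv2c*. Among the 29 cytosolic or tail-anchored members with a ratio, 8 lay below that median, and their own median was 1.46. This split was made after the values were seen and was not tested. Counts and levels of *Syt1*, *Syt2* and *Vamp1* imply that both assays were scaled by the same gene lengths, while footprints lie mainly in coding sequence. Ratios and footprint levels compared between genes therefore also depend on the coding share of each transcript, whose part was not tested.

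*Rab3a* and *Rims1* had footprints without matching RNA, and were singled out after their values were seen. *Rab3a*, the main Rab3 of brain synaptic vesicles, had a Ribo-seq RPKM of 239.1, 230.4 and 233.4 in Ctrl, the highest of the set, but between 3 and 38 RNA-seq counts in each of the 9 libraries. *Rims1*, an active zone scaffold that binds Rab3, had 2235, 1583 and 1598 footprint counts in Ctrl and no RNA-seq count in 8 libraries, with 1 read in *M*-cKO replicate 3. Of 7183 genes with a mean Ctrl RPKM of at least 5, 477 (6.64%) had a mean Ctrl FPKM below 0.5, and these 2 were the only ones of 31 members above that RPKM to do so. Whether the reads of such genes were lost in counting was not tested, and no change in the RNA or TE of either is described, although *Rab3a*, with a TE of 485 in Ctrl, stays among the members tested and in their counts and medians.

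In RNA-seq, 17 of the 43 members tested were lower and 4 were higher in *F*-cKO than in Ctrl, by the quasi-likelihood test of edgeR at an adjusted *P* (Benjamini-Hochberg) under 0.05 and with no limit on fold change. Over all genes tested, 21.1% were called, 9.57% lower and 11.5% higher, so the members were called lower more often than genes at large and higher about as often. In *M*-cKO 17 members were lower and 5 were higher, against 29.6% of all genes called, 14.1% lower and 15.5% higher. The median log2 fold change of the members was -0.21 for *F*-cKO and -0.20 for *M*-cKO, where the medians over all genes were -0.01 in both. All *F*-cKO libraries lay below all Ctrl libraries for 20 of the 44 members and above them for 7. Of all genes with at least 60 counts over the 6 libraries, 19.6% and 22.2% did so. For *M*-cKO these counts were 20 and 5 members, where 21.5% and 23.4% of genes above the same limit did so. *Rims1* could not be tested. Both comparisons use the same Ctrl libraries, so their values are set side by side here and the difference between the knockouts is taken from a direct comparison.

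**Figure D2:**
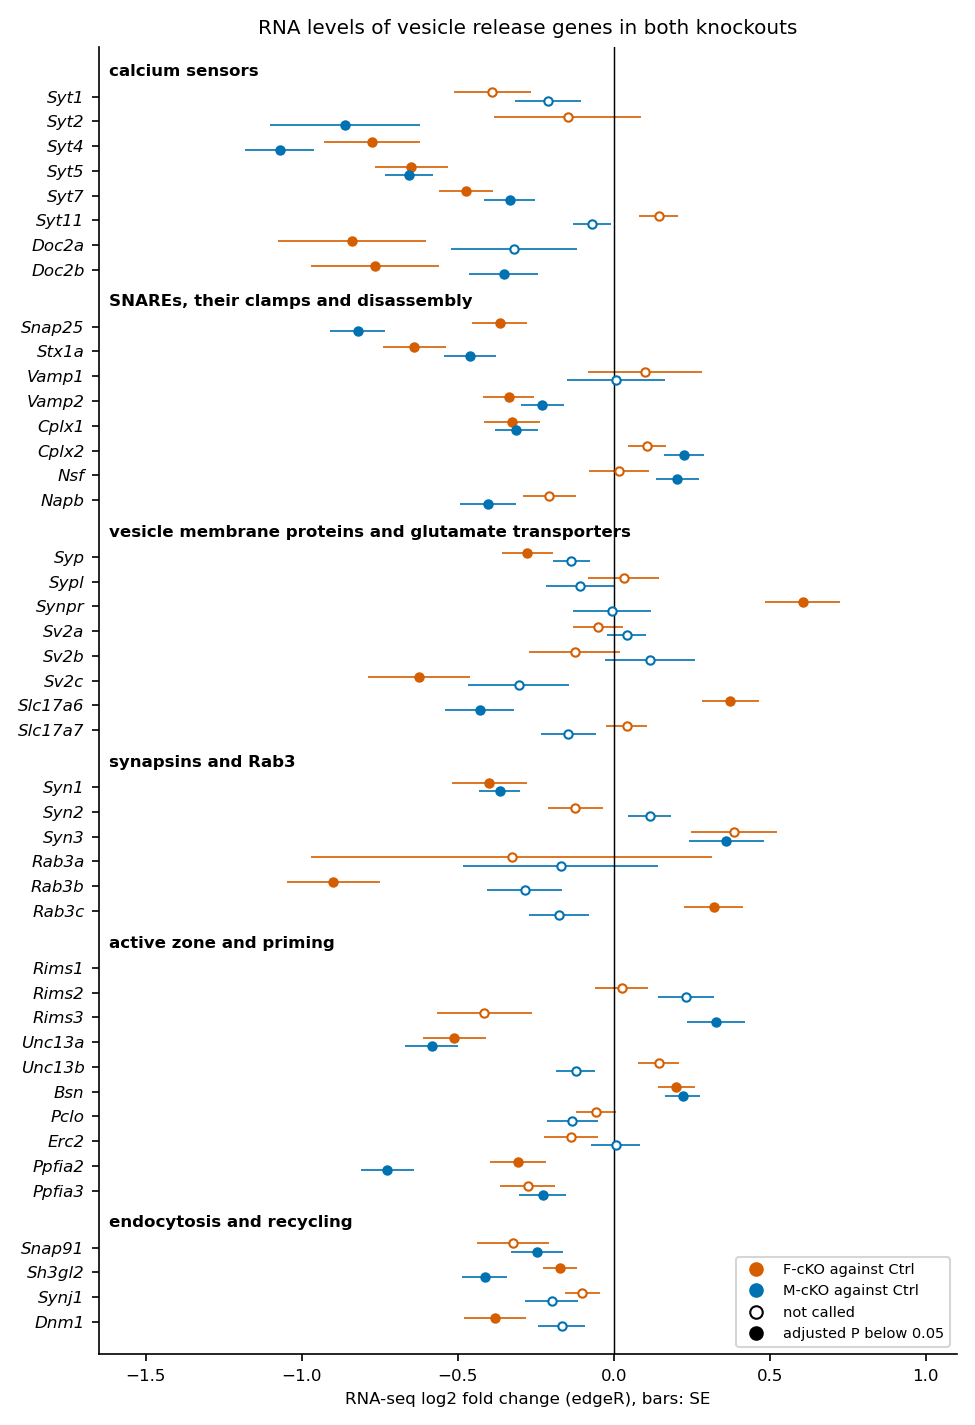
RNA-seq log2 fold change of each member against Ctrl (x axis, bars are SE, n = 3 against 3 libraries), in orange for *F*-cKO and blue for *M*-cKO and grouped by role. Filled points passed an adjusted *P* below 0.05, with 17 lower and 4 higher in *F*-cKO and 17 lower and 5 higher in *M*-cKO, and calcium sensors and SNAREs lie mostly left of 0.

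The *F*-cKO counts depended on single libraries, for the members as for genes at large. Lower calls numbered 7 without Ctrl replicate 1, 6 without Ctrl replicate 3, 9 without *F*-cKO replicate 2 (the library of its group with the most *Fto* RNA) and 10 without *F*-cKO replicate 3. Over all genes the lower calls fell in the same fits, from 1621 to 947, 559, 812 and 1180. Higher calls numbered 1 without any 1 of the Ctrl libraries or without *F*-cKO replicate 2, and 2 without *F*-cKO replicate 1. In *M*-cKO the lower calls stayed between 12 and 20, whereas the number of higher calls, 5 with all libraries, was 0 without *M*-cKO replicate 1, 1 without Ctrl replicate 2, and 3 without Ctrl replicate 1, Ctrl replicate 3 or *M*-cKO replicate 2. Without Ctrl replicate 3, 1 of these 3 was *Rims2*, which was not called with all libraries. Over all genes the higher calls in *M*-cKO stayed between 2048 and 2584, against 2630 with all libraries. Calls that held in every one of the 11 alternatives were *Syt4*, *Syt5*, *Syt7*, *Stx1a*, *Rab3b* and *Unc13a* (lower) and *Synpr* (higher) in *F*-cKO. In *M*-cKO they were *Syt4*, *Syt5*, *Syt7*, *Snap25*, *Stx1a*, *Cplx1*, *Napb*, *Slc17a6*, *Syn1*, *Ppfia2*, *Unc13a* and *Sh3gl2*, all lower. Every other call was lost in at least 1 alternative, and those of *Bsn*, *Ppfia2* and *Rab3c* in *F*-cKO and of *Doc2b*, *Ppfia3* and *Snap91* in *M*-cKO were each lost in 6 of 11.

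Markers of other cell classes moved in the same libraries. Of 10 general markers of postmitotic neurons, 4 were lower and 1 higher in *F*-cKO, with a summed FPKM of 2264 to 2544 against 2629 to 2924 in Ctrl. The sums of *M*-cKO were 2620 to 2757, and there 3 markers were lower and 3 higher. All 7 markers of ganglionic eminence and interneurons were higher in *M*-cKO and 2 were in *F*-cKO, and their sums were 121 to 163 in *M*-cKO and 82.6 to 115 in *F*-cKO, against 86.7 to 88.3 in Ctrl. Of 6 cortical projection neuron markers, whose sums are given above, 5 were higher in *F*-cKO, and 5 were higher and 1 lower in *M*-cKO. Of 11 progenitor markers, 7 were higher and 2 lower in *F*-cKO and 5 higher and 2 lower in *M*-cKO, but their summed FPKM was lower in *M*-cKO, at 648 to 691 against 835 to 923 in Ctrl and 844 to 885 in *F*-cKO. The summed footprint RPKM of the progenitor markers was 1175 to 1662 in *M*-cKO against 2034 to 2276 in Ctrl, with 2 called higher and 1 lower. That of interneuron markers was 64.1 to 124 against 38.7 to 57.8, with 4 of 7 higher and 0 lower. Of the projection neuron markers 3 were higher and 1 lower in *M*-cKO footprints, and of the general neuron markers 0 were higher and 1 lower. In RNA-seq, of 6 striatal markers, 4 were higher and 1 lower in *M*-cKO and 1 was higher in *F*-cKO, with sums of 19.9 to 27.0 in *M*-cKO, 17.5 to 27.7 in *F*-cKO and 18.5 to 21.7 in Ctrl. Of 5 thalamic markers tested, 2 were higher in *M*-cKO and 1 in *F*-cKO, with sums of 8.72 to 9.29, 7.69 to 8.89 and, in Ctrl, 6.35 to 7.38. All 3 astroglial markers were lower in both knockouts, with sums of 4.30 to 6.09 in *F*-cKO, 5.18 to 5.97 in *M*-cKO and 8.41 to 11.5 in Ctrl. Of 4 endothelial and 5 meningeal markers, 1 and 2 were lower in *F*-cKO and none was called in *M*-cKO. Of 5 erythroid markers 1 was lower in *F*-cKO. The *F*-cKO sums of these 3 lists lay below every Ctrl library, at 33.4 to 38.7 against 45.5 to 49.4 for endothelium, 2.35 to 8.98 against 10.5 to 20.3 for meninges and 357 to 439 against 475 to 877 for erythroid cells. Ctrl replicate 2 was the highest Ctrl library for each of them, and choroid plexus markers had sums of 68.6, 793 and 313 in the Ctrl libraries, against 269 to 384 for *F*-cKO and 427 to 584 for *M*-cKO. No marker of these lists was at 0 in a group. The part of cell composition in the changes of the vesicle genes was not tested, and in bulk cortex fewer cells of a type and less RNA per cell cannot be told apart.

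Among the 8 synaptotagmin and Doc2 genes, grouped as calcium sensors in the plot of fold changes although *Syt11* does not bind calcium, 5 were lower in each knockout and none was higher. *Syt4*, a synaptotagmin of vesicles in growing axons that senses calcium poorly, had an FPKM of 72.4, 60.7 and 85.8 in Ctrl, 51.7, 43.2 and 33.8 in *F*-cKO, and 36.7, 36.3 and 31.8 in *M*-cKO. Every knockout library lay below every Ctrl library. It was 1.71-fold lower in *F*-cKO (log2 fold change -0.78 ± 0.15, SE, adjusted *P* = 0.00921) and 2.10-fold lower in *M*-cKO (-1.07 ± 0.11, adjusted *P* = 7.49e-05), the largest RNA decrease of the set. *Doc2a* and *Doc2b* encode soluble high-affinity calcium sensors of spontaneous and asynchronous release. The *Doc2b* FPKM was 4.82, 4.31 and 5.35 in Ctrl, 3.15, 3.59 and 1.85 in *F*-cKO, and 4.18, 3.70 and 3.52 in *M*-cKO. Its libraries did not overlap with Ctrl in either knockout, and the log2 fold changes were -0.77 ± 0.20 (adjusted *P* = 0.027) and -0.35 ± 0.11 (adjusted *P* = 0.031). For *Doc2a* the FPKM was 1.78, 1.43 and 2.04 in Ctrl, 1.09, 1.17 and 0.694 in *F*-cKO, and 1.71, 1.18 and 1.32 in *M*-cKO. The *F*-cKO libraries lay below all Ctrl libraries (-0.84 ± 0.24, adjusted *P* = 0.0331), while those of *M*-cKO overlapped with Ctrl (-0.32 ± 0.20, adjusted *P* = 0.264). *Doc2a* lies over *Ino80e* in the annotation, and the library kit did not mark strand, so their reads may be shared.

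The rarest of the group, *Syt2*, the fast sensor of hindbrain and spinal synapses, had an FPKM of 0.426, 0.426 and 0.497 in Ctrl, 0.324, 0.352 and 0.546 in *F*-cKO, and 0.294, 0.285 and 0.166 in *M*-cKO. Only the *M*-cKO libraries were clear of Ctrl (-0.86 ± 0.24, adjusted *P* = 0.0194), on 28 to 73 counts per library. *Syt5* and *Syt7*, the latter a slow high-affinity sensor, were lower in both knockouts, *Syt5* by 1.57-fold (*F*-cKO) and 1.58-fold (*M*-cKO) and *Syt7* by 1.39-fold and 1.26-fold. *Syt1* reached -0.39 ± 0.12 in *F*-cKO with an adjusted *P* of 0.0506, just outside the threshold, and -0.21 ± 0.11 in *M*-cKO (adjusted *P* = 0.160).

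The fusion machinery was lower for 4 of 8 members in *F*-cKO and for 5 of 8 in *M*-cKO, where 2 others were higher. *Snap25*, a SNARE of the plasma membrane, had an FPKM of 23.3, 21.0 and 27.0 in Ctrl, 19.0, 19.1 and 17.7 in *F*-cKO, and 13.9, 13.9 and 12.8 in *M*-cKO. The 3 groups did not overlap, with *M*-cKO lowest. Relative to Ctrl it was 1.29-fold lower in *F*-cKO (-0.37 ± 0.09, adjusted *P* = 0.0178) and 1.77-fold lower in *M*-cKO (-0.82 ± 0.09, adjusted *P* = 8.80e-05). *Stx1a*, its syntaxin partner, was at 29.2, 29.2 and 35.3 FPKM in Ctrl, 21.2, 21.8 and 17.6 in *F*-cKO, and 23.3, 21.4 and 23.8 in *M*-cKO. Both knockouts lay below Ctrl, by 1.56-fold (-0.64 ± 0.10, adjusted *P* = 0.00443) and 1.38-fold (-0.46 ± 0.08, adjusted *P* = 0.00221). *Vamp2*, the vesicle SNARE, had an FPKM of 74.0, 64.5 and 75.6 in Ctrl, 59.96, 59.7 and 51.0 in *F*-cKO, and 60.1, 60.2 and 63.5 in *M*-cKO. The differences were small but without overlap (-0.34 ± 0.08, adjusted *P* = 0.0197, and -0.23 ± 0.07, adjusted *P* = 0.0287).

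*Napb*, a neuronal SNAP that helps the ATPase *Nsf* to take used SNARE complexes apart, had an FPKM of 10.8, 9.36 and 10.9 in Ctrl, 9.44, 9.56 and 8.10 in *F*-cKO, and 8.82, 7.76 and 7.02 in *M*-cKO. It was called in *M*-cKO (-0.40 ± 0.09, adjusted *P* = 0.00653), where no library overlapped with Ctrl, and not in *F*-cKO (-0.21 ± 0.08, adjusted *P* = 0.111). The clamp *Cplx1* was 1.26-fold lower in *F*-cKO and 1.24-fold lower in *M*-cKO. Its paralog *Cplx2* and *Nsf* were 1.17-fold and 1.15-fold higher in *M*-cKO, and the *Nsf* call was lost in 9 of 11 alternatives, among them without each of the 6 libraries. *Vamp1* was called in neither knockout.

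**Figure D3:**
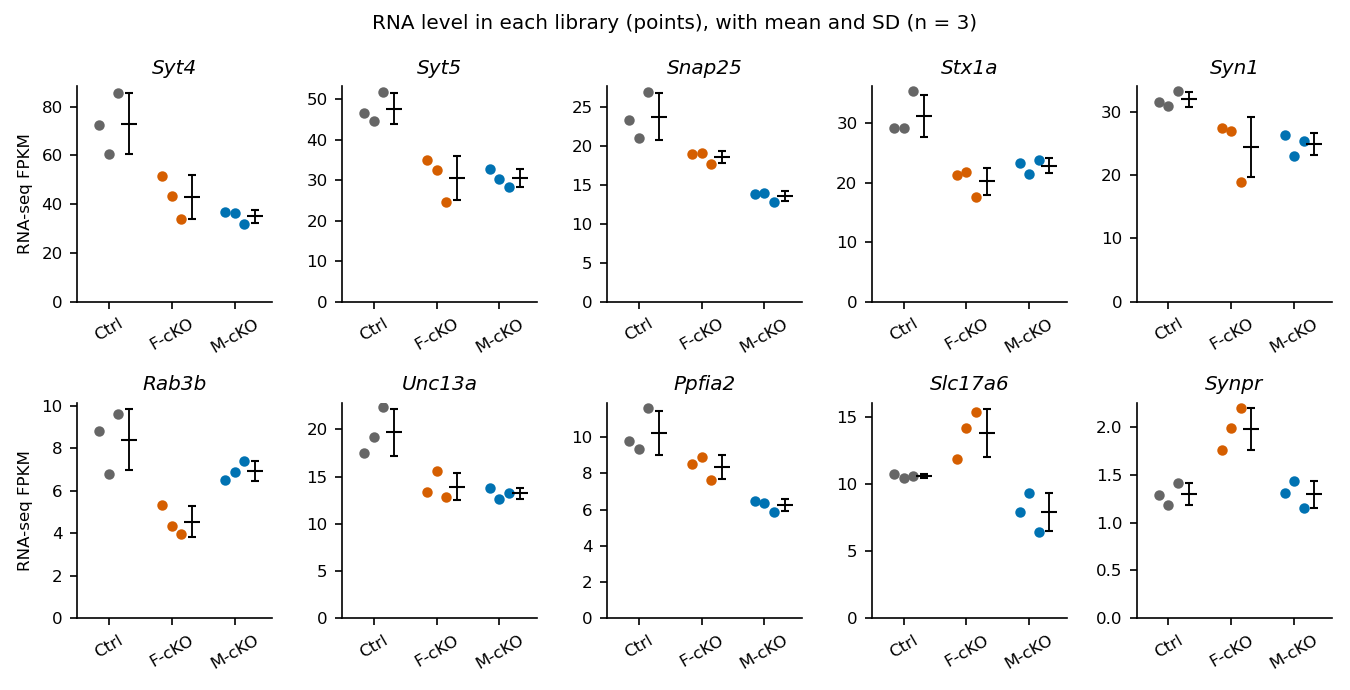
RNA-seq FPKM (y axes from 0) of 10 members in each library, as points, with the group mean and SD beside them (n = 3). *Snap25* and *Ppfia2* step down from Ctrl through *F*-cKO to *M*-cKO, *Rab3b* is lowest in *F*-cKO, and *Slc17a6* is above Ctrl in *F*-cKO and below it in *M*-cKO.

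Vesicle membrane proteins showed no common direction. The vesicular glutamate transporter gene *Slc17a6*, the form used first by developing cortical neurons, had an FPKM of 10.7, 10.5 and 10.6 in Ctrl, 11.9, 14.2 and 15.4 in *F*-cKO, and 7.95, 9.36 and 6.47 in *M*-cKO. The *F*-cKO libraries all lay above Ctrl and the *M*-cKO libraries all below it. It rose 1.30-fold in *F*-cKO (0.37 ± 0.09, adjusted *P* = 0.0196) and fell 1.35-fold in *M*-cKO (-0.43 ± 0.11, adjusted *P* = 0.0132). *Slc17a7*, the transporter that predominates in adult cortex, was called in neither knockout. *Synpr* encodes synaptoporin, a relative of synaptophysin, and its FPKM was 1.29, 1.18 and 1.41 in Ctrl, 1.76, 1.99 and 2.20 in *F*-cKO, and 1.31, 1.43 and 1.15 in *M*-cKO. Only *F*-cKO stood apart, at 1.52-fold above Ctrl (0.61 ± 0.12, adjusted *P* = 0.00909), and *M*-cKO overlapped with Ctrl (-0.01 ± 0.12).

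Synaptophysin itself, *Syp*, the most used marker of synaptic vesicles, was at 27.6, 25.6 and 28.3 FPKM in Ctrl, 24.5, 23.5 and 19.8 in *F*-cKO, and 25.0, 24.4 and 25.2 in *M*-cKO. No knockout library reached the lowest Ctrl library, but only the change in *F*-cKO was called (-0.28 ± 0.08, adjusted *P* = 0.0378, and -0.14 ± 0.06, adjusted *P* = 0.107 in *M*-cKO). *Sv2c*, a minor form of the SV2 vesicle glycoproteins, had an FPKM of 0.764, 0.627 and 0.721 in Ctrl, 0.511, 0.464 and 0.406 in *F*-cKO, and 0.618, 0.623 and 0.480 in *M*-cKO. Both knockouts lay below Ctrl, with the call again in *F*-cKO (-0.62 ± 0.16, adjusted *P* = 0.0248) and not in *M*-cKO (-0.31 ± 0.16, adjusted *P* = 0.181). *Sv2a*, *Sv2b* and *Sypl* were called in neither.

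Synapsins and Rab3 genes went in both directions. *Syn1*, a phosphoprotein that tethers reserve vesicles to actin, had an FPKM of 31.6, 31.0 and 33.3 in Ctrl, 27.4, 26.9 and 18.9 in *F*-cKO, and 26.4, 23.0 and 25.4 in *M*-cKO. All knockout libraries were below Ctrl, by 1.32-fold in *F*-cKO (-0.40 ± 0.12, adjusted *P* = 0.0417) and 1.29-fold in *M*-cKO (-0.37 ± 0.07, adjusted *P* = 0.00205). *Syn3*, the synapsin of immature neurons, was at 0.926, 0.837 and 0.974 FPKM in Ctrl, 1.23, 1.38 and 0.992 in *F*-cKO, and 1.33, 1.11 and 1.09 in *M*-cKO. The knockout libraries were the higher ones in both cases, by 0.39 ± 0.14 for *F*-cKO (adjusted *P* = 0.0746, not called) and 0.36 ± 0.12 for *M*-cKO (adjusted *P* = 0.0419). The *M*-cKO call was lost in 8 of 11 alternatives, without any 1 of the Ctrl libraries among them. *Syn1* lies over *Araf* and *Timp1* and *Syn3* over *Fbxo7* and *Timp3*, so that their reads may be shared. *Syn2* was called in neither knockout.

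*Rab3b* and *Rab3c* are less abundant relatives of *Rab3a* that act partly in its place. The *Rab3b* FPKM was 8.83, 6.80 and 9.61 in Ctrl, 5.35, 4.33 and 3.94 in *F*-cKO, and 6.5, 6.88 and 7.42 in *M*-cKO. It fell 1.87-fold in *F*-cKO (-0.90 ± 0.15, adjusted *P* = 0.00492), where no library overlapped with Ctrl, and its *M*-cKO libraries overlapped with Ctrl (-0.29 ± 0.12, adjusted *P* = 0.0986). *Rab3c* went the other way, at 15, 12.9 and 14.9 FPKM in Ctrl, 19.9, 18.3 and 15.5 in *F*-cKO, and 14.2, 13.1 and 10.7 in *M*-cKO. The *F*-cKO libraries all exceeded Ctrl (0.32 ± 0.09, adjusted *P* = 0.037), while the *M*-cKO libraries overlapped with it (-0.18 ± 0.10, adjusted *P* = 0.199).

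At the active zone, 2 of 9 tested members were lower and 1 higher in *F*-cKO, and 3 were lower and 2 higher in *M*-cKO. *Unc13a*, the Munc13 priming factor on which most glutamate release depends, had an FPKM of 17.5, 19.2 and 22.4 in Ctrl, 13.3, 15.6 and 12.9 in *F*-cKO, and 13.8, 12.7 and 13.2 in *M*-cKO. It was 1.43-fold lower in *F*-cKO (-0.51 ± 0.10, adjusted *P* = 0.00898) and 1.5-fold lower in *M*-cKO (-0.58 ± 0.08, adjusted *P* = 0.000561), without overlap in either, and it lies over *Colgalt1* in the annotation. *Ppfia2*, a liprin-alpha scaffold that assembles release sites, was at 9.77, 9.35 and 11.6 FPKM in Ctrl, 8.51, 8.88 and 7.63 in *F*-cKO, and 6.47, 6.37 and 5.85 in *M*-cKO. The groups stepped down without overlap, by 1.24-fold (-0.31 ± 0.09, adjusted *P* = 0.0382) and 1.65-fold (-0.73 ± 0.09, adjusted *P* = 0.00015) relative to Ctrl.

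*Rims3*, a short RIM protein, had an FPKM of 6.94, 5.68 and 7.22 in Ctrl, 5.6, 5.67 and 3.72 in *F*-cKO, and 9.05, 7.88 and 8.11 in *M*-cKO. The *M*-cKO libraries lay above Ctrl (0.33 ± 0.09, adjusted *P* = 0.0206) and the *F*-cKO libraries below it, without a call (-0.42 ± 0.15, adjusted *P* = 0.0802). *Rims2*, a RIM scaffold, was at 3.56, 3.23 and 3.94 FPKM in Ctrl, 3.81, 3.67 and 3.52 in *F*-cKO, and 4.43, 4.33 and 3.90 in *M*-cKO, with overlap and no call in RNA-seq (adjusted *P* = 0.0722 in *M*-cKO). The giant scaffold *Bsn* was 1.15-fold higher in *F*-cKO and 1.17-fold higher in *M*-cKO, and its partner *Pclo* was called in neither. *Ppfia3* was 1.17-fold lower in *M*-cKO.

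All 4 endocytosis genes had negative log2 fold changes in both knockouts, and 2 were called in each. *Sh3gl2*, the endophilin that bends membrane at retrieval sites, had an FPKM of 16.9, 16.2 and 17.1 in Ctrl, 15.2, 15.1 and 14.6 in *F*-cKO, and 12.2, 11.8 and 14.0 in *M*-cKO. The groups did not overlap, with changes of -0.17 ± 0.05 in *F*-cKO (adjusted *P* = 0.0482) and -0.41 ± 0.07 in *M*-cKO (adjusted *P* = 0.00149). The *F*-cKO call was lost in all 11 alternatives, with adjusted *P* values of 0.0544 to 0.147. *Dnm1*, the neuronal dynamin that cuts vesicles free, was at 19.1, 17.6 and 21.7 FPKM in Ctrl, 15, 17.0 and 13.3 in *F*-cKO, and 17.7, 17.4 and 17.3 in *M*-cKO. It was lower in *F*-cKO, without overlap (-0.38 ± 0.10, adjusted *P* = 0.0251), and *M*-cKO touched the Ctrl range (-0.17 ± 0.08, adjusted *P* = 0.122). *Snap91*, a clathrin adaptor of synapses, had an FPKM of 17.7, 15.6 and 18.8 in Ctrl, 16.2, 14.2 and 11.5 in *F*-cKO, and 16.0, 14.8 and 13.4 in *M*-cKO. Its groups overlapped, with -0.32 ± 0.12 in *F*-cKO (adjusted *P* = 0.0741) and -0.25 ± 0.08 in *M*-cKO (adjusted *P* = 0.043). The *M*-cKO call of *Snap91* was lost in 6 of 11 alternatives. *Synj1*, which strips clathrin coats by removing phosphate from membrane lipids, was called in neither knockout.

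Promoter windows of the set were read because many members were lower together. They were taken from the RefSeq annotation of GRCm38.p6, from 250 bases before to 50 bases after each start, and 35 of the 44 members had at least 1 window (46 windows). On both strands, TTCAGCACC, the left part of the RE1 element bound by REST, a repressor of neuronal genes, occurred in windows of 3 members (*Syn1*, *Unc13a* and *Ppfia3*), and GGACAGCGC, from the right part, in 1 (*Unc13a*). In all 32851 windows these letters occurred in 0.371% and 0.405%. TGACGTCA, the cyclic AMP response element, which reads the same on both strands, occurred in windows of 2 members (*Syn1* and *Sh3gl2*) and in 1.79% of all windows. The 3 stretches below hold these letters, which are in capitals, and come from the members with a match whose lower call in *M*-cKO held in every alternative. They were picked after the values were seen. *Ppfia3*, whose match begins at -46 and whose *M*-cKO call was lost in 6 of 11 alternatives, is not printed. For *Syn1* (chrX:20920919-20921168, minus strand) and *Sh3gl2* (chr4:85205206-85205455, plus strand) they are the 250 bases before the start, 5′ to 3′ along the gene. For *Unc13a* (chr8:71671727-71671752, minus strand) they are bases 6 to 31 after the start, where both parts lie on the strand opposite to the gene. Both parts together occurred in 5 of all windows (0.0152%).
Syn1: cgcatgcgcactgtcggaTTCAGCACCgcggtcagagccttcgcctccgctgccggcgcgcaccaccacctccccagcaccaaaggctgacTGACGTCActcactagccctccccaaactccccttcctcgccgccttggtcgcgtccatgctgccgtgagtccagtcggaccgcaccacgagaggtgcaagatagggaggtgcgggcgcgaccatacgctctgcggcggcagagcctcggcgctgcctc
Sh3gl2: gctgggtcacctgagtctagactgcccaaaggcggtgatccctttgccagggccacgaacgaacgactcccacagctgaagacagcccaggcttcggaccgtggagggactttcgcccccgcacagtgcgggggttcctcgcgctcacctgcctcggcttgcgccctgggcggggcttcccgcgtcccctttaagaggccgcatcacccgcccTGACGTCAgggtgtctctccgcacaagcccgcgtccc
Unc13a: GCGCTGTCCgcgcccccGGTGCTGAA
Counted from the start, the RE1 part of *Syn1* begins at -232 and its cyclic AMP element at -159, and that of *Sh3gl2* begins at -37. These are matches of letters only, and whether a factor binds them in this tissue was not measured.

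Setting *M*-cKO directly against *F*-cKO, without Ctrl, called 10 of 43 members in RNA-seq, 8 lower and 2 higher in *M*-cKO, against 27.4% of all genes (14.3% lower and 13.1% higher), a share close to that of the members. The largest decrease was that of *Slc17a6*, 1.76-fold lower in *M*-cKO (-0.82 ± 0.13, adjusted *P* = 0.00191). *Synpr* was 1.54-fold, *Rab3c* 1.42-fold, *Snap25* 1.38-fold and *Ppfia2* 1.35-fold lower. Without *F*-cKO replicate 2 or *M*-cKO replicate 2 the lower calls numbered 5, while those over all genes fell from 2403 to 1325 and 1500. Decreases of *Unc13b* (1.21-fold), *Sh3gl2* (1.19-fold) and *Syt11* (1.17-fold) were smaller. *Unc13b* lies over *Fam214b* in the annotation, so that their reads may be shared. *Rims3* was 1.66-fold higher (0.73 ± 0.13, adjusted *P* = 0.00336) and *Rab3b* 1.52-fold higher (0.60 ± 0.12, adjusted *P* = 0.00529) in *M*-cKO. *Syt4*, *Syt5*, *Stx1a*, *Syn1* and *Unc13a*, lower in both knockouts relative to Ctrl, were not called between them, with log2 differences from -0.30 ± 0.12 for *Syt4* to 0.17 ± 0.09 for *Stx1a*. In the same comparison 6 of 7 interneuron markers, 5 of 5 erythroid, 3 of 5 meningeal and 2 of 3 choroid plexus markers were higher in *M*-cKO, and 6 of 11 progenitor markers were lower and 1 higher. Of 10 general neuron markers 3 were higher and 3 lower. The part of these markers in the differences was not tested.

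In Ribo-seq, 6 of 44 members were called in *M*-cKO, 5 lower and 1 higher, against 14.6% of all genes (7.50% lower and 7.13% higher), so that the share of members called was near the background. Their median log2 fold change was -0.13, where that of all genes was -0.00028. For 12 members every *M*-cKO library lay below every Ctrl library and for 2 above. Of all genes with at least 60 counts over the 6 libraries, 20.4% and 17.6% did so. *Syt4* footprints had an RPKM of 21.6, 19.6 and 21.8 in Ctrl and 10.6, 8.27 and 12.7 in *M*-cKO, 1.99-fold lower (-0.99 ± 0.14, adjusted *P* = 0.00956). For *Syn1* the RPKM was 91.5, 84.7 and 84.7 in Ctrl and 56.0, 48.7 and 63.1 in *M*-cKO (-0.63 ± 0.10, adjusted *P* = 0.0123). These genes had no overlap between groups in footprints or in RNA.

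*Stx1a* footprints were at 53.4, 41.3 and 44.7 RPKM in Ctrl and 35.2, 30.9 and 36.5 in *M*-cKO (-0.43 ± 0.11, adjusted *P* = 0.0444). *Rab3c* was at 12.1, 11.5 and 12.3 RPKM in Ctrl and 7.79, 7.27 and 10.4 in *M*-cKO (-0.49 ± 0.13, adjusted *P* = 0.0429), and *Syt5* changed by -0.44 ± 0.11 (adjusted *P* = 0.0418), again without overlap. *Rims2*, not called in RNA-seq, rose in footprints, from 5.28, 4.80 and 5.13 RPKM in Ctrl to 7.75, 6.31 and 8.58 in *M*-cKO (0.58 ± 0.11, adjusted *P* = 0.0194), with every *M*-cKO library above Ctrl. *Sh3gl2* lay just outside the threshold, at 54.3, 51.8 and 53.3 RPKM in Ctrl and 28.0, 21.4 and 43.5 in *M*-cKO (-0.78 ± 0.22, adjusted *P* = 0.0506).

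Of the 6 members called in footprints, 4 were also among the 22 called in RNA-seq of *M*-cKO (*Syt4*, *Syt5*, *Stx1a* and *Syn1*, all lower in both), and *Rab3c* and *Rims2* were called in footprints alone, while the difference between assays was not called for either. *Snap25*, 1.77-fold lower in RNA, had 33.7, 31.3 and 39.4 footprint RPKM in Ctrl and 22.6, 24.1 and 36.4 in *M*-cKO, with overlap and no call (-0.32 ± 0.18, adjusted *P* = 0.256). The footprint calls rested on few libraries, as did those of all genes. Lower calls numbered 1 without any 1 of the Ctrl libraries and 2 without *M*-cKO replicate 1 or 2, and the higher call of *Rims2* was lost without any 1 of the Ctrl libraries or without *M*-cKO replicate 1. Over all genes the lower calls fell from 1073 to between 62 and 192 without 1 of the Ctrl libraries, and to 380 and 524 without *M*-cKO replicate 1 and 2. *Syt4* was called with every library left out in turn, but not with all 3 genotypes in a single fit (edgeR adjusted *P* = 0.215).

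**Figure D4:**
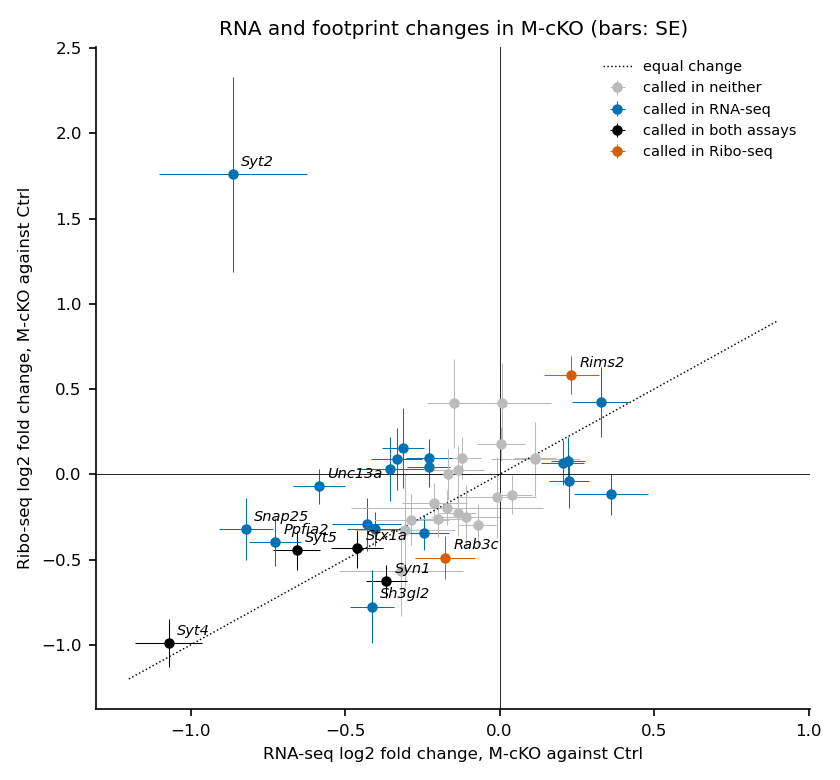
RNA-seq (x axis) against Ribo-seq (y axis) log2 fold change of each member tested in both assays in *M*-cKO relative to Ctrl, with SE bars and a dotted line of equal change. *Syt4* lies near the line at -1.07 and -0.99, *Snap25* and *Unc13a* lie above it, and *Syt2* is far above it with a wide error.

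In *F*-cKO no member was called in Ribo-seq by edgeR's quasi-likelihood test or by DESeq2. Of all 14335 genes tested, edgeR called 0% and DESeq2 called 5 higher and 1 lower. By edgeR 1 member had an unadjusted *P* below 0.05, against 2.22% of all genes. The smallest adjusted *P* of a member was 0.730. One library stood apart, *F*-cKO replicate 2, which also had the fewest fragments of all Ribo-seq libraries. In that library all 14 members inserted in the endoplasmic reticulum membrane were above their Ctrl mean, with a median log2 ratio of 1.52, whereas the medians were -0.30 in *F*-cKO replicate 1 and 0.11 in replicate 3. The *Syt11* RPKM was 8.65, 53.6 and 10.5 in the 3 *F*-cKO libraries and 10.4, 11.5 and 9.76 in Ctrl. The 30 cytosolic or tail-anchored members went the other way there, with a median of -0.72 and 4 of 30 above the Ctrl mean, and *Syn1* was at 58.1, 28.1 and 97.9 RPKM in *F*-cKO.

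The fitted *F*-cKO changes carried this library with them. Over the 14 inserted members the median log2 fold change was 0.72, with 13 positive, and it became -0.13, with 4 positive, without *F*-cKO replicate 2. For the cytosolic group the medians were -0.23 and -0.12. Endothelial markers, 4 genes that also encode membrane proteins, had a summed RPKM of 80.4 in *F*-cKO replicate 2 and of 4.68 and 6.51 in the other *F*-cKO libraries, against 4.90 to 8.07 in Ctrl, and none was at 0. Meningeal markers were also highest there, at 43.1 against 6.00 and 19.3. General neuron markers were lowest there, at 2147 against 4457 and 5437 in the other *F*-cKO libraries and 4518 to 5197 in Ctrl, as were projection neuron markers, at 187 against 342 and 307, and progenitor markers, at 1459 against 2399 and 2212. The part of these cell classes in the footprints of that library was not tested. Between *M*-cKO and *F*-cKO footprints, edgeR and DESeq2 called no member. Of all 14262 genes tested, edgeR called 0% and DESeq2 called 178 higher and 28 lower. By edgeR 1 member had an unadjusted *P* below 0.05, against 8.09% of all genes.

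**Figure D5:**
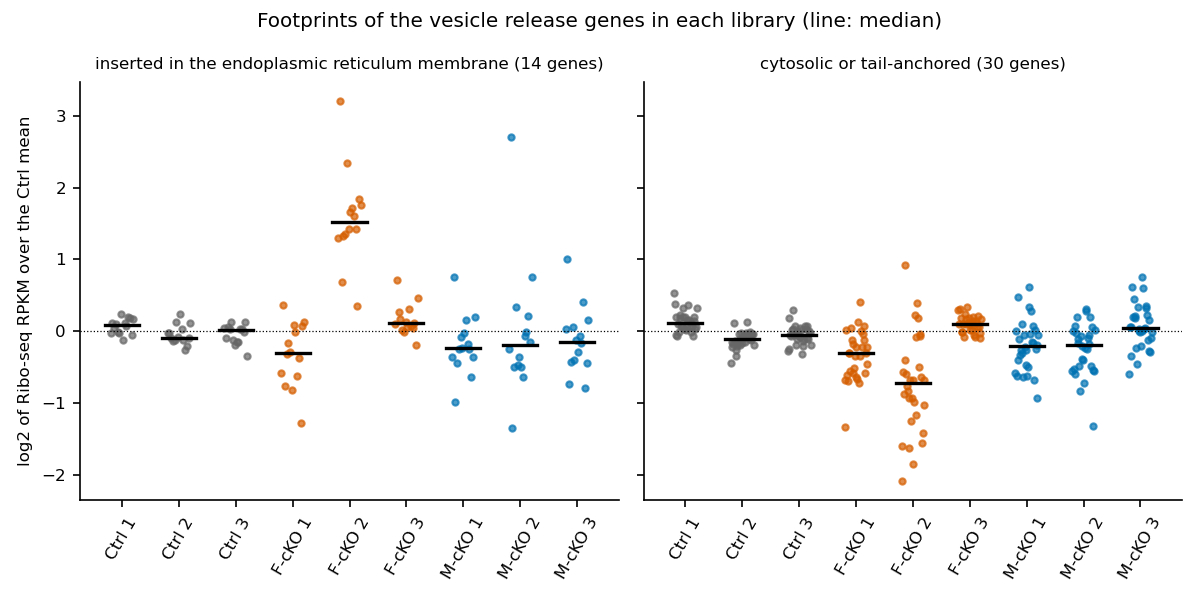
Log2 ratio of each member's Ribo-seq RPKM to its Ctrl mean (y axis) in each of the 9 libraries (x axis), for the 14 members inserted in the endoplasmic reticulum membrane and for the 30 others, with a line at each median. In *F*-cKO replicate 2 the first group has a median of 1.52 and the second of -0.72.

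TE was compared as the interaction of assay and genotype over 12 libraries. In *M*-cKO 2 of 43 members were called, both higher, against 3.07% of all genes (1.89% higher and 1.18% lower), so that the share of members was near the background. *Unc13a* had a TE change of 0.58 ± 0.14 on the log2 scale (adjusted *P* = 0.0457). Its RNA was lower, as given above, while its footprints were at 14.9, 13.2 and 12.2 RPKM in Ctrl and 13.1, 11.3 and 13.7 in *M*-cKO, with overlap (-0.07 ± 0.10). *Syt2* had a TE change of 2.67 ± 0.63 (adjusted *P* = 0.0369) on 22, 17 and 16 footprint counts in Ctrl and 19, 54 and 26 in *M*-cKO, with the highest count in *M*-cKO replicate 2.

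Both TE calls were fragile. That of *Unc13a* was lost in 19 of 24 alternatives and that of *Syt2* in 16 of 23. DESeq2 gave no adjusted *P* for the TE of *Syt2* and is not among these 23. The *Syt2* call was lost without any 1 of the RNA-seq libraries or of the Ribo-seq Ctrl libraries, and with all 3 genotypes in a single fit. In *F*-cKO no member was called for TE by edgeR or by DESeq2. Of all 13225 genes tested, edgeR called 0% and DESeq2 called 5 higher and 39 lower. By edgeR 5 members had an unadjusted *P* below 0.05 (9.29% of all genes), and the smallest adjusted *P* was 0.471. Over the 14 inserted members the median TE change in *F*-cKO was 0.93 and became 0.10 when the Ribo-seq library of *F*-cKO replicate 2 was left out. Between *M*-cKO and *F*-cKO edgeR and DESeq2 called no member. Of all 13162 genes tested for TE there, edgeR called 0% and DESeq2 called 16 higher and 2 lower. By edgeR no member had an unadjusted *P* below 0.05 (4.11% of all genes).

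Other genes of the release pathway, 83 genes in 4 lists of which 79 were tested, were lower for 18 and higher for 4 in RNA-seq of *F*-cKO and lower for 25 and higher for 10 in *M*-cKO, with median log2 fold changes of -0.13 and -0.07. All genes were called lower in 9.57% and higher in 11.5% of cases in *F*-cKO, and in 14.1% and 15.5% in *M*-cKO. The vesicle membrane list had 7 of 16 genes lower and none higher in *F*-cKO, led by *Syngr3* (-0.56), a synaptogyrin, and *Scamp5* (-0.36). In *M*-cKO 4 of these were lower, led by *Syngr3* (-0.50) and *Atp6v0a1* (-0.30), a subunit of the proton pump that energises loading, and 2 were higher, *Slc18a2* (0.91), the monoamine transporter, and *Slc32a1* (0.86), the GABA and glycine transporter of inhibitory neurons. In footprints *Slc32a1* rose by 1.32. The interneuron markers given above rose in the same libraries, and their part was not tested.

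Among further fusion and calcium sensing genes, 4 of 23 were lower and none higher in *F*-cKO, led by *Syt16* (-0.53) and *Snap47* (-0.30). In *M*-cKO 9 were lower, led by *Syt16* (-0.42) and *Stx4a* (-0.34), and *Syt17* (1.16) and *Syt13* (0.54) were higher. Of 18 further active zone genes, 2 were lower and 1 higher in *F*-cKO, and 6 were lower and 3 higher in *M*-cKO. They included *Rims4*, lower in both knockouts (-0.69 and -0.41), *Ppfia4*, lower by 0.60 in *F*-cKO, and *Erc1*, higher in both (0.34 and 0.27).

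Of 22 further endocytosis genes, 5 were lower and 3 higher in *F*-cKO and 6 lower and 3 higher in *M*-cKO. *Ston2*, a clathrin adaptor for synaptotagmin, was 0.99 and 0.97 higher on the log2 scale, and *Sh3gl3* (-0.67) and the clathrin light chain *Cltb* (-0.54) were lower in *F*-cKO. In *M*-cKO footprints of all 79 genes tested, 10 were lower and 4 higher, where 7.50% and 7.13% of all genes were. The clathrin heavy chain *Cltc* (-0.63) and the adaptor subunit *Ap2m1* (-0.77) were lower there, and *Pacsin1* (0.87) was higher in footprints and in RNA (0.34). For TE in *M*-cKO 1 of 78 genes was called, the liprin-alpha gene *Ppfia1* (0.40), a share below the 3.07% of all genes.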

How the data were processed

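RNA-seq and Ribo-seq of E15.5 cortex were analysed in Ctrl, *F*-cKO and *M*-cKO, grouped by the labels, with 3 libraries per group and assay. For RNA-seq the authors sequenced 150 bp paired-end reads from a kit that does not mark strand, and deposited counts and FPKM per gene. For Ribo-seq the authors digested lysates with RNase I, counted fragments per gene and deposited counts and RPKM. The submitters' processing notes name HISAT2 2.0.5, TopHat2, HTSeq, DESeq2 1.14.1 and mm10, and the tool behind the RNA-seq counts is not given in the sources used here. The sample descriptions name these units the other way round (RPKM for RNA-seq, FPKM for Ribo-seq), and the methods calculate TE from RPKM in both assays. The units of the deposited column headers are used here. The deposited FPKM and RPKM values were used as levels only.

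The count test was edgeR 4.0.16 under R 4.3.3. Low genes were dropped with filterByExpr at a minimum count of 10 and a total of 15, TMM scaled the libraries, each comparison was fitted over its own 6 libraries (12 for TE) with the quasi-likelihood test, and adjustment (Benjamini-Hochberg) ran across every gene in the fit. Fits were tested on simulated data. Member symbols were matched to the Ensembl identifiers of the tables through a gene name table, and overlapping genes were taken from RefSeq. Values in every library are given, per role, for up to 4 called members with the largest changes, and further pathway genes are named for up to 2 per direction and comparison. Members, lists and roles were chosen with earlier results of these data known. Alternatives were DESeq2 1.42.0, RLE scaling, no count filter, all 3 genotypes fitted together, a replicate block, and each library left out in turn. For TE, TMM scaling within each assay and leaving out a replicate of both assays were added after the data were seen. Replicate numbers are shared across groups in the labels, and correlations of same-numbered libraries were low, at -0.32 to 0.22. In RNA-seq the same number was the best match for 0 of 3 (Ctrl and *F*-cKO), 1 of 3 (Ctrl and *M*-cKO) and 0 of 3 (both knockouts). In Ribo-seq it was the best match for 1, 2 and 2 of 3 in that order. Depth per library sets the precision, and genes with few counts, such as *Syt2*, have wide errors.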

Additional observations from a re-analysis of the deposited data

Results flagged for a closer look

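By the direct test of *M*-cKO against *F*-cKO, 10 of 43 members differed in RNA (23.3%), a share below the 27.4% of all genes called in that comparison. Log2 differences were -0.82 for *Slc17a6*, -0.62 for *Synpr*, -0.51 for *Rab3c*, -0.47 for *Snap25*, -0.43 for *Ppfia2*, -0.28 for *Unc13b*, -0.25 for *Sh3gl2*, -0.23 for *Syt11*, 0.60 for *Rab3b* and 0.73 for *Rims3*. Leaving out 1 library ended the call in 4 cases for *Sh3gl2*, 3 for *Syt11* and 2 for *Unc13b*, and the other 7 held in all 11 alternatives.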

How the results depend on the processing

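No called member changed direction under any alternative. Of the calls, 57 of 60 were kept with DESeq2, 57 of 61 with RLE scaling, 58 of 61 without the count filter, 46 of 61 with all 3 genotypes in a single fit and 239 of 390 with a library left out. The 60 leave out the TE call of *Syt2*, which had no adjusted *P* in DESeq2. With the replicate block 41 of 61 were kept. Correlations of same-numbered libraries were low, and the block gave 2 higher and 7 lower members in RNA-seq *F*-cKO, 3 higher in RNA-seq *M*-cKO and 0 higher for TE in *M*-cKO. Other counts that moved were, in RNA-seq *M*-cKO, higher members at 3 with DESeq2 and 2 with all 3 genotypes, and in *M*-cKO against *F*-cKO, higher members at 5 without the filter. In Ribo-seq *M*-cKO, DESeq2 gave 2 higher and 8 lower, RLE scaling 3 lower, and all 3 genotypes 0 higher and 0 lower. For TE in *M*-cKO, higher members numbered 1 with DESeq2, 1 with RLE scaling, 0 without the filter and 0 with all 3 genotypes. Leaving out libraries in turn gave 1 to 5 higher and 6 to 17 lower in RNA-seq *F*-cKO, 0 to 5 higher in RNA-seq *M*-cKO, 5 to 9 lower in *M*-cKO against *F*-cKO, 0 to 1 higher and 1 to 6 lower in Ribo-seq *M*-cKO, and 0 to 2 higher and 0 to 2 lower for TE in *M*-cKO. The causes were not tested.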
